A study of Mus musculus with 12 samples.

Results

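The insulin-like growth factor (IGF) system was followed in the hippocampus through 10 genes chosen by name, the ligands *Igf1* and *Igf2*, the receptors *Igf1r* and *Igf2r*, and the binding proteins *Igfbp2*, *Igfbp3*, *Igfbp4*, *Igfbp5*, *Igfbp6* and *Igfbp7*, out of 55421 genes listed in the files. The list was drawn up with results of these libraries known, because *Igf2* had already stood out between KO-Nut3 and KO-Veh, so the values of that comparison are a description. Its *P*-values are not printed, and its counts of calls only stand beside those of all genes. The libraries were made from poly(A) RNA of hippocampal tissue of 12 mice, 3 animals per group. WT-Veh and WT-Nut3 were wild-type mice, KO-Veh and KO-Nut3 were *Fmr1* knockout mice, and vehicle or Nutlin-3, which blocks the binding of MDM2 to p53, was given intraperitoneally at 2 months of age. Tissue was collected at 6 months of age, and the methods give all mice the genetic background C57B/L6. The knockout is constitutive, so the groups do not show which cell type responds. Each library comes from a single animal and carries its number (RH1 to RH16).

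IGF1 and IGF2 are secreted peptides related to insulin that act through the tyrosine kinase receptor IGF1R, and IGF2R takes IGF2 into the cell for degradation. The binding proteins hold the ligands in extracellular fluid, which prolongs their life there and limits or directs their access to the receptor. In the adult brain, *Igf2* is known from the choroid plexus, the meninges and blood vessels more than from neurons, and it is an imprinted gene expressed from the paternal copy in most tissues but from both copies in choroid plexus and leptomeninges.

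In GRCm38, *Igfbp2* (chromosome 1, 72824503 to 72852474, plus strand) and *Igfbp5* (chromosome 1, 72857932 to 72874884, minus strand) are neighbours whose 3′ ends face each other. *Igfbp3* (7206086 to 7213923, minus strand) and *Igfbp4* (99041244 to 99054392, plus strand) lie on chromosome 11, *Igfbp6* on chromosome 15 (102144362 to 102149511, plus strand) and *Igfbp7* on chromosome 5 (77349240 to 77408041, minus strand). *Igf1* lies on chromosome 10 (87858265 to 87937042, plus strand), *Igf1r* on chromosome 7 (67952827 to 68233668, plus strand), which also holds *Igf2*, and *Igf2r* on chromosome 17 (12682406 to 12769664, minus strand). All 10 members passed the filter on low counts, with 504 reads over the 12 libraries for *Igf2* and 40950 for *Igfbp5* at the ends of the range.

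Levels are normalised read counts in CPM, the counts of a gene scaled to the library size after TMM normalisation. Libraries held between 17150820 (WT-Veh RH2) and 20040482 (WT-Nut3 RH9) reads on genes. *Fmr1*, the targeted gene, had 74.0 to 79.5 CPM in the 6 WT libraries and 28.5 to 37.3 CPM in the 6 KO libraries, with no overlap between genotypes. Between KO-Veh and WT-Veh its log2 fold change was -1.18 (SE 0.0690, adjusted *P*-value 1.76e-06 in edgeR). The 8 markers of hippocampal neurons were all detected in every library, with a summed level of 757 CPM in KO-Nut3 RH6 and 956 to 1183 CPM in the other 11. Libraries differed in genes that mark other tissue. *Ttr*, the transthyretin gene made by choroid plexus epithelium, had 4520 CPM in KO-Nut3 RH13, 4215 CPM in WT-Nut3 RH9, 3091 CPM in KO-Nut3 RH6 and 313.5 CPM in KO-Nut3 RH8, and 3.15 to 18.2 CPM in the other 8 libraries. *Aldh1a2*, an enzyme of retinoic acid synthesis found in meningeal fibroblasts, had 21.7 CPM in KO-Nut3 RH8, 14.9 CPM in WT-Veh RH5, 10.1 CPM in KO-Nut3 RH6 and 1.40 to 4.06 CPM in the other 9.

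The counts of *Igf2* cover only part of the gene. *Igf2* (ENSMUSG00000048583) lies on chromosome 7 from 142650766 to 142666816 on the minus strand of GRCm38 (GENCODE M21), and its exons hold 5723 bases in 8 blocks. Of these, 3596 bases are also exons of Gm49394 (ENSMUSG00000115302), a protein-coding gene model on the same strand that reaches further upstream, and 98 bases are exons of the antisense gene *Igf2os*. A read on bases shared by several genes is set aside by the counter of STAR as ambiguous, and Gm49394 was listed with 0 reads in all 12 libraries. This leaves 2029 bases (35.5%) from which reads could be counted for *Igf2*, chiefly in its alternative upstream exons, and 132 of its 678 coding bases. The study's qPCR assay for *Igf2* reads another part of the same gene, which is why its product is shown here. The product spans 222 bases in 2 coding exons, chr7:142654325-142654448 and chr7:142655654-142655751, all of them shared with Gm49394 and 0 of them counted for *Igf2* in the deposited files. It is printed 5′ to 3′ from transcript Igf2-201 with the bases of the primers in capitals, the end of the product being the reverse complement of the reverse primer.
Igf2 qPCR product: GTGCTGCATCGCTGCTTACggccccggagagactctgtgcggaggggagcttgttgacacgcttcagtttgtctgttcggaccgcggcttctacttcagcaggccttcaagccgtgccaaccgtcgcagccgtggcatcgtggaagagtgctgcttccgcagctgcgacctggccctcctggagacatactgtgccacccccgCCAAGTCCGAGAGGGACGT
Both primer sites are in 6 of the 9 annotated *Igf2* transcripts and in the transcript of Gm49394. The counts and this assay therefore measured separate stretches of the *Igf2* RNA, and the counts bear on only 132 coding bases.

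**Figure D1:**
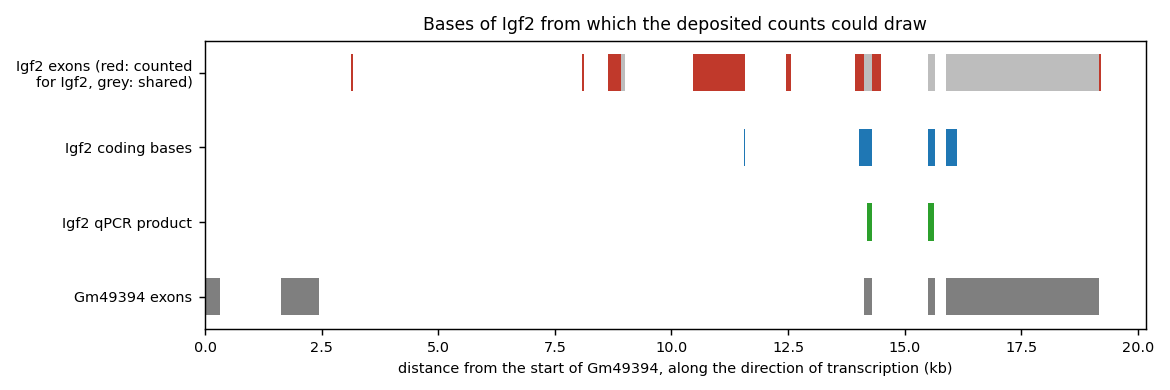
Exon map of *Igf2* and Gm49394 by distance in kb from the start of Gm49394, with exon bases counted for *Igf2* in red, shared bases in grey, coding bases in blue and the qPCR product in green. The 2029 counted bases lie mainly upstream of the coding exons, and the 222 bases of the product lie wholly within shared exons.

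*Igf2* and *Igfbp2* were the members that differed most among libraries, and the sequence before a start site of each is shown because their levels were high in several of the same libraries. The RefSeq table holds 14 start sites for the 10 members. The 250 bases before the start site of *Igf2* transcript Igf2-201 (chr7:142657497-142657746, minus strand, GRCm38.p6) and before the upstream start of *Igfbp2* (chr1:72824230-72824479, plus strand) are given 5′ to 3′ in lower case, with the motif GGGCGG, the GC box, in capitals wherever it occurs on either strand.
Igf2 promoter: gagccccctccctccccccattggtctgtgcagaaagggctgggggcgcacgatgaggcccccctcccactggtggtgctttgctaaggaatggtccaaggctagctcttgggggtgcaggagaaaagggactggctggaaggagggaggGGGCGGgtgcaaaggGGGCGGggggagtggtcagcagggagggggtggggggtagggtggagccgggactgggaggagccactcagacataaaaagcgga
Igfbp2 promoter: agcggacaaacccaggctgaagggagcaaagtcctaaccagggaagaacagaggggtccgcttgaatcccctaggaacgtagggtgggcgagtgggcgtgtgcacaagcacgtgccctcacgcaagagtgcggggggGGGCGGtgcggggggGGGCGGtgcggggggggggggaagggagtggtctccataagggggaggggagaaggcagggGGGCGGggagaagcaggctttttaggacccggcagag
The *Igf2* window holds 2 GC boxes and the *Igfbp2* window 3, and neither holds TATAAA on either strand. These are the windows with the most GC boxes of each gene, since the 3 other windows of *Igf2* hold 1, 0 and 0 and the other window of *Igfbp2* holds 0. Transcript Igf2-201 has 112 of the bases counted for *Igf2*. Of the 32841 windows of this length in the table, 32.7% hold GGGCGG, 12.4% hold TATAAA and 33.9% hold CCAAT, which occurs in the *Igf2* window and not in that of *Igfbp2*. Among the 14 windows of the members, 6 hold GGGCGG. These matches describe the letters only.

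Of the ligands, *Igf2* was the one with large differences among libraries. It had 5.43, 5.84 and 4.28 CPM in KO-Nut3 RH6, RH8 and RH13, and 1.03, 0.564 and 0.684 CPM in KO-Veh RH7, RH10 and RH16. In WT-Veh it had 0.299 CPM in RH2, 3.26 CPM in RH5 and 0.773 CPM in RH15, and in WT-Nut3 1.01 CPM in RH1, 3.83 CPM in RH9 and 0.280 CPM in RH14. All 3 KO-Nut3 libraries were above the other 9, and WT-Nut3 RH9 and WT-Veh RH5 came next, well above the rest of their own groups. These levels rest on few reads, 62 to 102 in the 5 libraries with the most and 5 to 20 in the other 7. The exact Poisson 95% interval of 20 reads is 12.2 to 30.9 and that of 62 reads is 47.5 to 79.5, which covers counting error only. KO-Nut3 RH13 had 78 reads (61.7 to 97.3) and WT-Nut3 RH9 had 77 (60.8 to 96.2), so the gap between them lies within counting error. The 5 and 7 libraries were told apart by these same reads. *Igf1* had 6.32 to 11.4 CPM over the 12 libraries, with means of 8.79 ± 1.95 CPM in KO-Nut3, 8.80 ± 2.57 CPM in KO-Veh, 8.18 ± 0.878 CPM in WT-Veh and 8.02 ± 1.10 CPM in WT-Nut3 (SD, n = 3 each), and all 4 groups overlapped.

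Both receptors were steady. *Igf1r* had 88.3 to 103.9 CPM and *Igf2r* 51.4 to 61.7 CPM over the 12 libraries, ranges of 1.18-fold and 1.20-fold. Across all KO against all WT libraries the log2 fold change was 0.022 (SE 0.0446, adjusted *P*-value 0.934 in edgeR) for *Igf1r* and -0.034 (SE 0.0529, adjusted *P*-value 0.910) for *Igf2r*. Across all Nut3 against all Veh libraries it was 0.035 (SE 0.0446) and 0.049 (SE 0.0529), given as a description. With a library left out, these values ran from -0.0057 to 0.044 and from -0.065 to -0.0053 for genotype, and from 0.014 to 0.065 and from 0.017 to 0.079 for treatment. The ends of these ranges came without WT-Nut3 RH1 or KO-Veh RH16 for *Igf1r* and without WT-Veh RH2 or KO-Nut3 RH13 for *Igf2r*. Differences of this size are smaller than the spread between libraries. *Igf2r* was higher in each KO-Nut3 library (55.1, 55.6 and 61.7 CPM) than in each KO-Veh library (53.2, 54.2 and 51.4 CPM), a 1.08-fold difference (log2 fold change 0.114, SE 0.0693). In that comparison, which was used in choosing the genes, groups did not overlap for 13.3% of all genes. For *Igf2r*, KO-Nut3 overlapped with both WT-Veh and WT-Nut3.

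Among the binding proteins, *Igfbp2*, an abundant carrier of IGF2 in cerebrospinal fluid, varied more among libraries than any other member but *Igf2*. It had 87.5, 53.0 and 112.5 CPM in KO-Nut3 RH6, RH8 and RH13, against 23.1, 16.5 and 22.3 CPM in KO-Veh RH7, RH10 and RH16. In WT-Veh it had 21.02 CPM in RH2, 31.4 CPM in RH5 and 18.0 CPM in RH15, and in WT-Nut3 19.1 CPM in RH1, 100.1 CPM in RH9 and 15.6 CPM in RH14. WT-Nut3 RH9 thus lay within the range of KO-Nut3, while WT-Veh RH5 with 31.4 CPM was the highest of the remaining 8 (15.6 to 23.1 CPM in the others). *Igfbp7*, which binds insulin as well as IGFs and is made by vascular cells, had 21.6, 20.3 and 27.9 CPM in KO-Nut3 RH6, RH8 and RH13 and 19.2, 12.7 and 13.8 CPM in KO-Veh RH7, RH10 and RH16. It had 12.5, 17.9 and 14.8 CPM in WT-Veh RH2, RH5 and RH15 and 17.3, 21.9 and 13.9 CPM in WT-Nut3 RH1, RH9 and RH14, so that KO-Nut3 was above KO-Veh and WT-Veh in every library but overlapped with WT-Nut3 RH9. *Igfbp7* shares 85 exon bases with *Polr2b* on the opposite strand, and the strand columns together hold 15.6% more reads for it, which cannot be told from reads of *Polr2b*.

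*Igfbp6*, a carrier that prefers IGF2, had 6.15, 11.3 and 8.34 CPM in WT-Veh RH2, RH5 and RH15 and 5.63, 4.28 and 6.21 CPM in KO-Veh RH7, RH10 and RH16. It had 8.65, 10.2 and 5.49 CPM in KO-Nut3 RH6, RH8 and RH13 and 10.4, 8.45 and 5.94 CPM in WT-Nut3 RH1, RH9 and RH14. KO-Veh held the lowest mean of *Igfbp6* but overlapped with each other group. *Igfbp5* had 171.9 ± 8.79 CPM in KO-Veh, 193.7 ± 8.84 in KO-Nut3, 190.4 ± 11.1 in WT-Veh and 184.7 ± 28.8 in WT-Nut3 (SD, n = 3 each). *Igfbp3*, the main carrier in blood, had 12.5 to 22.3 CPM over all libraries. *Igfbp4*, an inhibitor of IGF action until it is cleaved, had 64.6 CPM in KO-Nut3 RH6 and 81.9 to 92.3 CPM in the other 11.

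**Figure D2:**
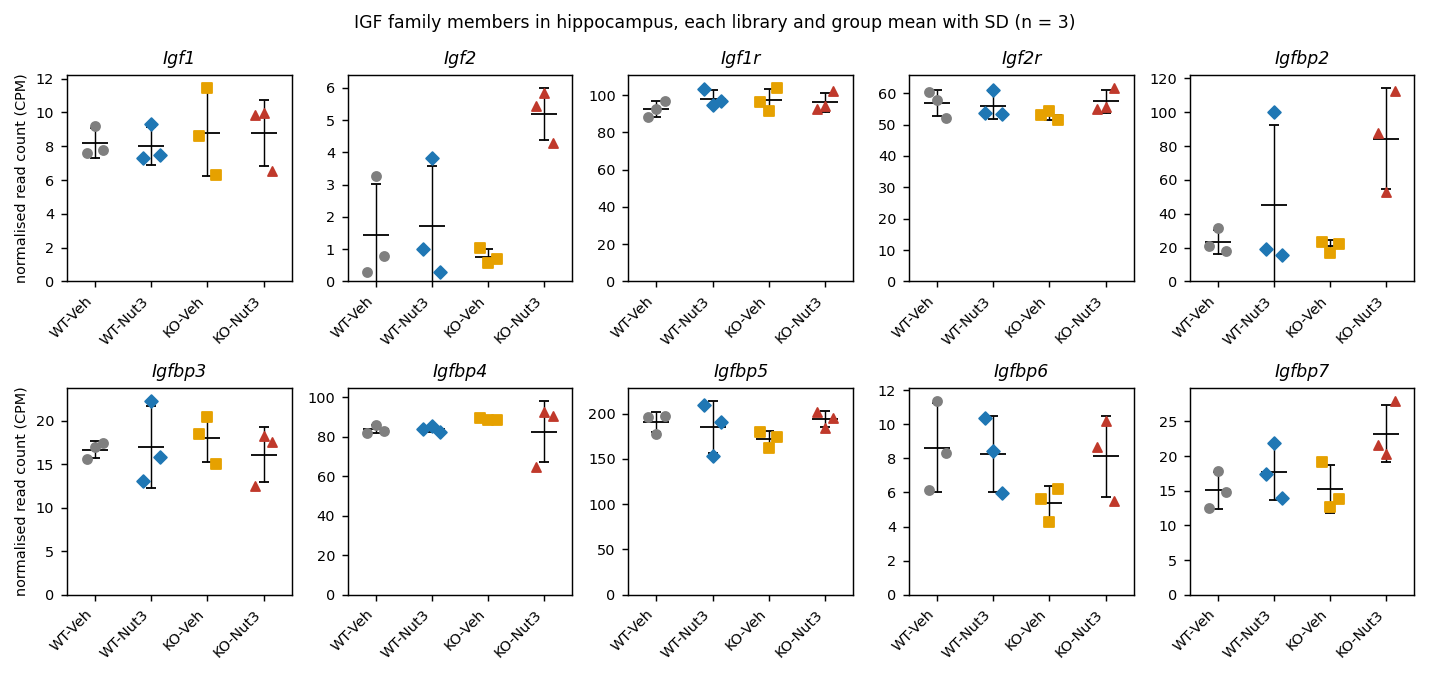
Normalised read count in CPM of the 10 members in each of the 12 libraries, with the mean (horizontal line) and SD (bars, cut at 0 where they would reach below it) of each group, n = 3. *Igf2* and *Igfbp2* were high in all 3 KO-Nut3 libraries and in single WT libraries, *Igf2* reaching 3.26 CPM in WT-Veh RH5 and 3.83 CPM in WT-Nut3 RH9, while *Igf1r* and *Igf2r* stayed within 1.20-fold.

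Per kb of exon counted, the members fell into 3 bands. *Igfbp5* had 30.8 ± 2.77 CPM per kb, *Igfbp2* 23.5 ± 19.5, *Igfbp4* 19.2 ± 1.62 and *Igfbp7* 15.8 ± 4.12 (SD over the 12 libraries). They were followed by *Igfbp6* with 6.83 ± 2.05, *Igf2r* with 6.00 ± 0.380, *Igf1r* with 5.72 ± 0.289 and *Igfbp3* with 5.42 ± 0.898 CPM per kb. The ligands came last, *Igf2* with 1.12 ± 1.04 per kb of its 2029 counted bases and *Igf1* with 0.853 ± 0.156. No annotated transcript of *Igf2* holds all 2029 bases, since Igf2-205 holds 1126 of them and Igf2-201 holds 112. The level of *Igf2* per kb can therefore be too low, and its place in this order is not settled. Ranges of neighbours in this order overlapped, except from *Igfbp7* to *Igfbp6* and from *Igfbp3* to *Igf2*. The order of these means does not hold in each library. *Igf2* was below *Igf1* in the 7 libraries with 5 to 20 reads of *Igf2*, and over its full exons its mean was 0.397 CPM per kb. *Igfbp2* was above *Igfbp4* in the 4 libraries with high *Ttr*, and in the other 8 it had 8.47 to 17.0 CPM per kb, below the 18.6 to 20.3 of *Igfbp4*. Each binding protein was above *Igf1* in mean level per length, and above *Igf2* only as counted here. The coefficient of variation of the level over the 12 libraries was 92.7% for *Igf2* and 83.0% for *Igfbp2*, against 30.01% for *Igfbp6*, 26.0% for *Igfbp7*, 5.06% for *Igf1r* and a median of 9.80% over the 15346 genes with a mean of at least 1 CPM.

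**Figure D3:**
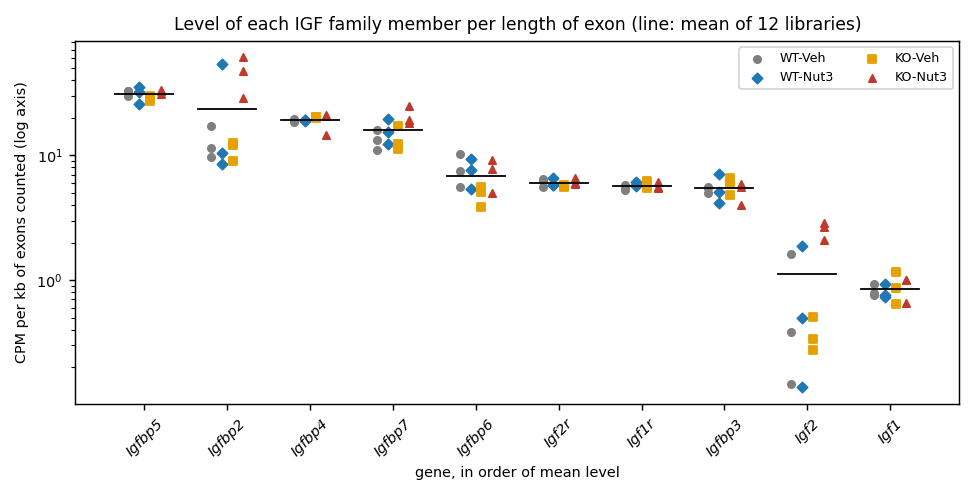
Level of each member in CPM per kb of exons counted (log axis), one point per library, with a line at the mean of the 12 libraries and genes in order of that mean. *Igfbp5* has the highest mean, 30.8 CPM per kb, and *Igf1* the lowest, 0.853, though *Igf2* is below *Igf1* in 7 libraries, and the points of *Igf2* and *Igfbp2* spread most. The place of *Igf2* is not settled, because each of its annotated transcripts holds only a part of the 2029 counted bases.

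Set against *Ttr* and *Aldh1a2*, *Igf2* was high in libraries with a high level of either gene. Its 5 highest libraries were KO-Nut3 RH8 (high in both), KO-Nut3 RH6 (high in both), KO-Nut3 RH13 and WT-Nut3 RH9 (high in *Ttr* only) and WT-Veh RH5 (high in *Aldh1a2* only). The 7 libraries with low *Igf2* were at or under 18.2 CPM of *Ttr* and at or under 4.06 CPM of *Aldh1a2*. *Igfbp2* followed *Ttr* more closely, since its 4 highest libraries were RH13, RH9, RH6 and RH8, in the same order as for *Ttr*, and WT-Veh RH5, with 9.56 CPM of *Ttr*, had 31.4 CPM of *Igfbp2*. *Igfbp7* had its 4 highest levels in the same 4 libraries. In this tissue RNA, fewer cells of a type and less RNA per cell cannot be told apart.

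The 18 markers of choroid plexus epithelium summed to 7217 CPM in KO-Nut3 RH13, 6753 in WT-Nut3 RH9, 5243 in KO-Nut3 RH6, 713 in KO-Nut3 RH8 and 159 to 227 CPM in the other 8 libraries, 4 of which had 1 marker at 0. *Ttr* was the most abundant of them in the 4 high libraries, and *Enpp2*, with 112.9 to 163.7 CPM, in the other 8. The 16 markers of meningeal fibroblasts, with 0 at 0 in any library, summed to 353 CPM in KO-Nut3 RH8, 266 in WT-Veh RH5, 190 in KO-Nut3 RH6 and 70.9 to 150.1 CPM in the other 9. *Dcn* was the most abundant of them in 11 libraries, and in KO-Nut3 RH6 it had its lowest level, 20.4 CPM, under the 23.2 CPM of *Col1a2*. Neither list holds a member. Between KO-Nut3 and KO-Veh, 18 of 18 choroid plexus markers (median log2 fold change 4.59) and 15 of 16 fibroblast markers (1.38) had positive values. In the other lists, positive values were found for 6 of 6 markers of ependyma (median 0.72), 5 of 5 of blood (0.42), 9 of 10 of mural cells (0.38), 10 of 12 of endothelium (0.28), 7 of 7 of oligodendrocytes (0.21), 6 of 10 of astrocytes (0.045), 5 of 9 of interneurons (0.017), 0 of 10 of microglia (-0.079) and 0 of 8 of hippocampal neurons (-0.14). Over the 12 libraries the sums were 4767 to 5945 CPM for astrocytes, 3594 to 6135 for oligodendrocytes, 831 to 1011 for interneurons, 278 to 354 for microglia, 315 to 427 for endothelium, 213 to 341 for mural cells, 42.2 to 84.7 for blood and 14.1 to 51.2 CPM for ependyma. With the mean log2 levels of the choroid plexus and fibroblast lists as terms in a fit of all 12 libraries, the log2 fold change of *Igf2* between KO-Nut3 and KO-Veh was -0.44 (SE 0.509) and that of *Igfbp2* -0.19 (SE 0.239), against 2.75 and 2.03 without these terms. These levels differ between the same groups, so this fit cannot separate the groups from the lists, and the part of other tissue in the result was not tested beyond these values.

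**Figure D4:**
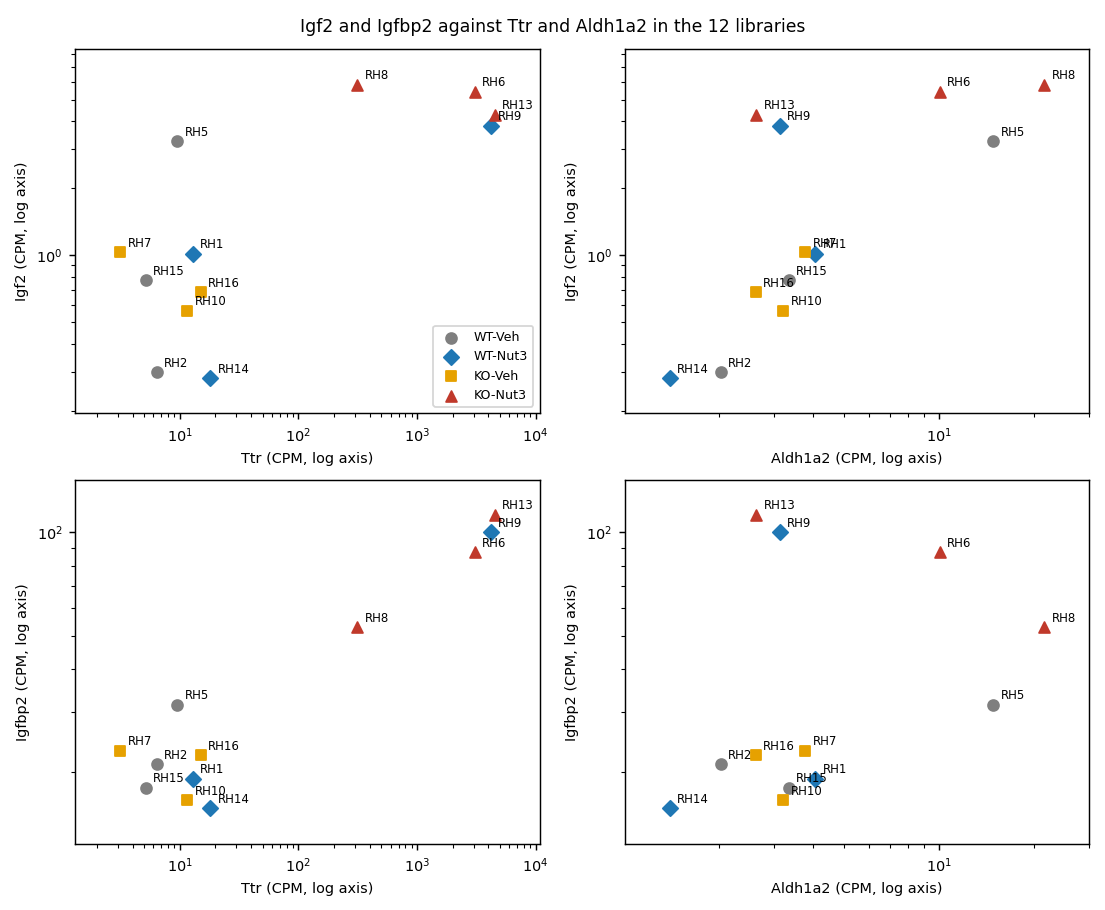
Level in CPM of *Igf2* (top) and *Igfbp2* (bottom) against *Ttr* (left) and *Aldh1a2* (right) in the 12 libraries, log axes, with points marked by group and animal number. WT-Nut3 RH9 (4215 CPM of *Ttr*) lies with KO-Nut3 RH6 and RH13 in both left panels, and WT-Veh RH5 (14.9 CPM of *Aldh1a2*) has the highest *Igf2* outside KO-Nut3 and WT-Nut3 RH9.

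The genes whose log2 levels were most like those of *Igf2* over the 12 libraries, among 15345 candidates, were *Slc13a4* (Pearson's r 0.983), *Gstm2* (0.980), *Wfikkn2* (0.979), *Bmp7* (0.973) and *Bmp6* (0.963). *Slc13a4*, a sulfate transporter that is on the choroid plexus list, had 25.1 CPM in WT-Veh RH5, 26.1 CPM in WT-Nut3 RH9, 36.7, 37.3 and 29.4 CPM in KO-Nut3 RH6, RH8 and RH13, and 2.41 to 7.28 CPM in the other 7 libraries, which are the same 5 high libraries as for *Igf2*. In WT-Veh RH5 *Slc13a4* departed from the rest of its list. There the list summed to 201 CPM, with 9.56 CPM of *Ttr* and 0.263 CPM of *Kcne2*, while the fibroblast list summed to 266 CPM. *Bmp6* and *Bmp7*, ligands of BMP receptors, had the same 5 libraries on top, with 18.3 to 26.3 CPM against 5.19 to 8.67 for *Bmp6* and 12.1 to 24.0 CPM against 4.04 to 7.43 for *Bmp7*. Most like *Igfbp2* were *Zfp185* (r 0.988), *Abca4* (0.988), *Gpx8* (0.983), *Kcne2* (0.980) and *Slc2a12* (0.975). By Spearman's rho, *Slc13a4* remained the most like *Igf2* (0.986), *Gstm2* was the 6th (0.944), and *Slc2a12* (0.951) was the 2nd, *Abca4* and *Kcne2* (0.916 each) the 7th, *Zfp185* (0.909) the 13th and *Gpx8* (0.902) the 15th most like *Igfbp2*. *Kcne2*, a potassium channel subunit on the choroid plexus list, had 22.4 CPM in KO-Nut3 RH13, 23.1 in WT-Nut3 RH9, 19.5 in KO-Nut3 RH6, 3.04 in KO-Nut3 RH8 and 0.0507 to 0.361 CPM in the other 8. These correlations describe 12 libraries that share a tissue and a protocol, and no test was made of them.

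Nutlin-3 against vehicle in KO mice is the comparison that drew attention to *Igf2*. Between KO-Nut3 and KO-Veh, *Igf2* was 6.72-fold higher (log2 fold change 2.75, SE 0.274), *Igfbp2* 4.07-fold (2.03, SE 0.240), *Igfbp7* 1.52-fold (0.61, SE 0.170), *Igfbp6* 1.51-fold (0.59, SE 0.239, and 0.39 without KO-Nut3 RH8) and *Igfbp5* 1.12-fold (0.17, SE 0.0634). Past the edgeR threshold (adjusted *P*-value under 0.05) were 2 of the 10 members, *Igf2* and *Igfbp2*, beside 0.199% of all 22592 genes tested. Both passed with DESeq2, beside 245 of 22566 genes. *Igfbp2* did not pass with limma-voom (log2 fold change 1.97) or with robust dispersion (2.03). Groups did not overlap for 5 members, beside 13.3%. Nothing is read from these counts, because the comparison was used in choosing the genes. In a fit of all 12 libraries, where the spread within WT groups enters, the log2 fold changes were 2.75 (SE 0.749) for *Igf2* and 2.03 (SE 0.537) for *Igfbp2* and both calls were lost, and 1 or both were lost when KO-Veh RH7, RH10 or RH16 was left out. In those 3 fits the log2 fold changes were 3.04, 2.58 and 2.68 for *Igf2* and 2.11, 1.89 and 2.09 for *Igfbp2*. With the choroid plexus and fibroblast levels as terms, as above, *Igfbp7* had 0.061, *Igfbp6* 0.068 and *Igfbp5* 0.47.

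Nutlin-3 against vehicle in WT mice moved none of the members past the threshold (0 of 10, beside 0.00% of all genes), with 0 members at an unadjusted *P*-value under 0.05 in edgeR (beside 3.17%) and 0 past the threshold with DESeq2 and limma-voom. Without a filter on low counts *Igfbp2* passed (adjusted *P*-value 4.95e-23 in edgeR), beside 249 of 35930 genes. In that fit the prior degrees of freedom, the weight given to the spread over all genes, were infinite, against 6.92 in the main fit. The spread of *Igfbp2* itself therefore did not enter that test, and nothing is read from this call. *Igfbp2* had a log2 fold change of 0.94 (SE 0.564, adjusted *P*-value 0.998 in edgeR), which became -0.43 without WT-Nut3 RH9, and *Igf2* one of 0.24 (SE 0.825), which ran from -1.14 without WT-Nut3 RH9 to 1.65 without WT-Veh RH5. *Igfbp7* had a log2 fold change of 0.24 (SE 0.172), which ran from 0.057 (without WT-Nut3 RH9) to 0.38 (without WT-Nut3 RH14, and similarly without WT-Veh RH5). Positive values were seen for 17 of 18 choroid plexus markers (median 4.57) and 1 of 16 fibroblast markers (-0.67). The choroid plexus markers summed to 6753 CPM in WT-Nut3 RH9, 211 in RH1 and 227 in RH14, against 159 to 201 CPM in WT-Veh. The fibroblast markers summed to 266 CPM in WT-Veh RH5 and to 70.9 to 150.1 CPM in the other WT libraries. With the mean log2 levels of both lists (the marker scores) as terms, *Igfbp2* had -0.38, *Igf2* -0.017 and *Igfbp7* 0.083. Groups did not overlap for 0 of the 10 members, beside 7.52% of all genes.

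The effect of the genotype under vehicle did not reach the threshold for any member either (0 of 10, beside 0.0177% of all genes, and 0 with DESeq2 and limma-voom). *Igfbp6* was 0.62-fold in KO-Veh relative to WT-Veh (log2 fold change -0.68, SE 0.213, adjusted *P*-value 0.608 in edgeR, from 0.0159 to 0.964 over the alternatives) and *Igfbp5* 0.90-fold (-0.15, SE 0.0609, adjusted *P*-value 0.668), and these 2 members had an unadjusted *P*-value under 0.05, beside 7.20% of all genes. The lowest value, 0.0159, came without a filter on low counts, where the prior degrees of freedom were again infinite and the spread of *Igfbp6* itself did not enter. *Igf2* had a log2 fold change of -0.93 (SE 0.6249, adjusted *P*-value 0.791), and without WT-Veh RH5 it was 0.48, in the opposite direction. *Igfbp6* had -0.44 without WT-Veh RH5. *Igfbp2* had -0.18 (SE 0.177), from -0.34 without WT-Veh RH15 to 0.083 without WT-Veh RH5, and *Igfbp7* 0.01 (SE 0.161), from -0.18 without KO-Veh RH7 to 0.15 without WT-Veh RH5. The choroid plexus markers had a median log2 fold change of 0.14 (14 of 18 positive) and the fibroblast markers -0.67 (1 of 16). The fibroblast score was 3.62 in WT-Veh RH5, 1.59 and 2.36 in WT-Veh RH2 and RH15, and 1.94 to 2.09 in KO-Veh. With the scores as terms *Igf2* had 0.098 and *Igfbp6* -0.38. Groups did not overlap for 1 member, *Igfbp4* (1.06-fold higher in KO-Veh), beside 12.4% of all genes.

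KO-Nut3 was also compared with both WT groups, in tests that share the KO-Nut3 libraries with the comparison above and are therefore not independent of it. Against WT-Veh, 0 of 10 members passed (beside 0.00443% of all genes) and 3 had an unadjusted *P*-value under 0.05 (beside 9.17%). These were *Igfbp2* (3.59-fold higher, log2 fold change 1.85, SE 0.273, adjusted *P*-value 0.125 in edgeR), *Igfbp7* (1.54-fold, 0.63, SE 0.159, adjusted *P*-value 0.257) and *Igf2* (3.54-fold, 1.83, SE 0.591, adjusted *P*-value 0.388), and for each of them the KO-Nut3 libraries did not overlap with WT-Veh, as for 15% of all genes. *Igfbp2* and *Igfbp7* passed with DESeq2 (adjusted *P*-values 0.000614 and 0.0365), beside 222 of 22563 genes, and neither did with limma-voom, beside 1 of 22592. *Igf2* had 3.23 without WT-Veh RH5. In the same comparison 18 of 18 choroid plexus markers (median log2 fold change 5.39) and 15 of 16 fibroblast markers (0.65) had positive values, and with their scores as terms *Igfbp2* had -0.36 and *Igf2* -0.34, in the opposite direction, and *Igfbp7* 0.12. Against WT-Nut3, 0 of 10 passed (beside 0.00443%, and 0 with DESeq2 and limma-voom), and 1, *Igf2* with a log2 fold change of 1.58 (SE 0.626, adjusted *P*-value 0.928), had an unadjusted *P*-value under 0.05, beside 4.87%. *Igfbp2* had 0.90 (SE 0.616) and *Igfbp7* 0.38 (SE 0.177) there. Without WT-Nut3 RH9, *Igf2* had 2.96 and *Igfbp2* 2.27, while *Igfbp2* had 0.49 without WT-Nut3 RH14 (and similarly without RH1) and *Igfbp7* 0.24 without WT-Nut3 RH14 or KO-Nut3 RH13. Positive values were found for 18 of 18 choroid plexus markers (median 0.89) and 16 of 16 fibroblast markers (1.35), and with the scores as terms *Igf2* had -0.32, *Igfbp2* 0.013 and *Igfbp7* 0.033. Groups did not overlap for 1 member, *Igf2*, beside 10.7% of all genes. The nearest libraries, KO-Nut3 RH13 and WT-Nut3 RH9, had 78 and 77 reads of *Igf2*, a gap within counting error.

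**Figure D5:**
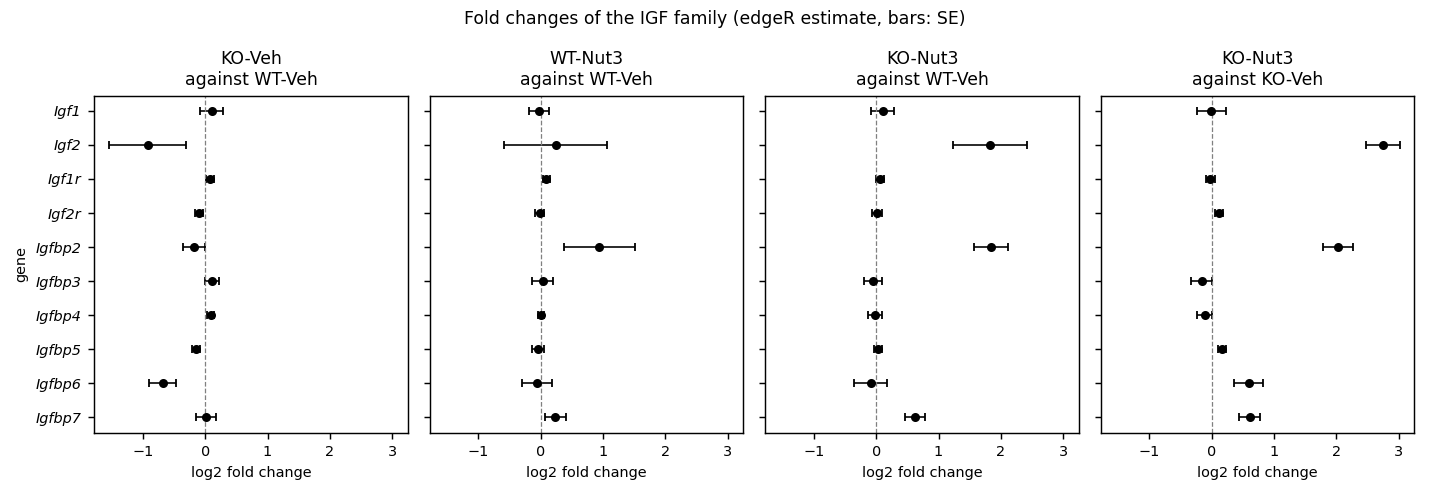
Log2 fold change of the 10 members in 4 comparisons, estimated with edgeR on the 6 libraries of each pair, with bars for the SE. *Igf2* and *Igfbp2* stand at 2.75 and 2.03 between KO-Nut3 and KO-Veh and at 1.83 and 1.85 between KO-Nut3 and WT-Veh, and both have wide bars between WT-Nut3 and WT-Veh.

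A term for genotype by treatment set the response of KO mice to the drug against that of WT mice. It contains the difference between KO-Nut3 and KO-Veh that was used in choosing the genes, so its values are a description too. In edgeR 0 of 10 members passed (beside 0.00% of all genes, and 0 with DESeq2 and limma-voom), and 1 had an unadjusted *P*-value under 0.05 (beside 4.17%). Without a filter on low counts *Igf2* and *Igfbp2* passed, beside 291 of 35930 genes. The prior degrees of freedom of that fit were infinite, so the spread of each gene itself did not enter. The difference of the log2 fold changes was 2.51 (SE 1.05) for *Igf2*, 1.09 (SE 0.748) for *Igfbp2*, 0.65 (SE 0.378) for *Igfbp6*, 0.38 (SE 0.273) for *Igfbp7* and 0.22 (SE 0.129) for *Igfbp5*. With a library left out, the value of *Igf2* ran from 1.10 (without WT-Veh RH5) to 3.89 (without WT-Nut3 RH9) and that of *Igfbp2* from 0.67 (without WT-Nut3 RH14, and similarly without RH1) to 2.46 (without WT-Nut3 RH9). *Igfbp6* had 0.40 without WT-Veh RH5, *Igfbp5* 0.098 without WT-Nut3 RH9, and *Igfbp7* from 0.22 without WT-Nut3 RH14 to 0.58 without KO-Veh RH7. With the marker scores as terms, the differences were -0.43 for *Igf2*, -0.24 for *Igfbp6* and -0.022 for *Igfbp7*, in the opposite direction, with 0.18 for *Igfbp2* and 0.46 for *Igfbp5*, and the median difference of the markers was 0.69 for choroid plexus and 2.04 for fibroblasts.

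Over all 6 KO and all 6 WT libraries, 0 of 10 members passed and 0 had an unadjusted *P*-value under 0.05, beside 0.00443% and 8.16% of all genes, and 0 passed with DESeq2 and limma-voom. Log2 fold changes were 0.54 (SE 0.606) for *Igf2*, 0.41 (SE 0.392) for *Igfbp2*, -0.35 (SE 0.203) for *Igfbp6*, 0.12 (SE 0.145) for *Igf1*, 0.013 (SE 0.129) for *Igfbp3* and 0.031 (SE 0.0684) for *Igfbp4*. With a library left out, *Igf2* ran from 0.15 (without WT-Nut3 RH14) to 1.26 (without WT-Veh RH5) and *Igfbp2* from 0.15 (without WT-Nut3 RH14) to 0.89 (without WT-Nut3 RH9), and leaving out WT-Nut3 RH1 (both genes), WT-Nut3 RH9 (*Igf2*) or KO-Nut3 RH13 (*Igfbp2*) also moved them by over 1.5 times. *Igfbp6* had -0.20 without WT-Veh RH5. *Igf1* ran from 0.017 (without KO-Veh RH10) to 0.20 (without KO-Veh RH16), and also moved by over 1.5 times without KO-Nut3 RH6, RH8 or RH13, while *Igfbp3* (-0.050 to 0.13) and *Igfbp4* (-0.0015 to 0.10) changed sign. With the marker scores as terms *Igf2* had -0.12, *Igfbp2* -0.092, *Igfbp3* -0.040 and *Igf1* 0.062, and 18 of 18 choroid plexus markers (median 0.75) and 16 of 16 fibroblast markers (0.32) had positive values. Over all 6 Nut3 and all 6 Veh libraries, which include those of the comparison in KO mice, 0 of 10 passed (beside 0.00%, and 0 with DESeq2 and limma-voom) and 3 had an unadjusted *P*-value under 0.05 (beside 7.29%). These were *Igfbp2* with a log2 fold change of 1.49 (SE 0.397, adjusted *P*-value 0.306 in edgeR), *Igfbp7* with 0.42 (SE 0.141, adjusted *P*-value 0.438) and *Igf2* with 1.48 (SE 0.609, adjusted *P*-value 0.619), which became 2.35 without WT-Veh RH5. With the marker scores as terms *Igfbp2* had -0.31, *Igf2* -0.17 and *Igfbp7* 0.076, and 18 of 18 choroid plexus markers (median 4.56) and 15 of 16 fibroblast markers (0.33) had positive values. *Igf1* had -0.016 (SE 0.145), *Igfbp3* -0.065 (SE 0.129) and *Igfbp4* -0.053 (SE 0.0684), and each of these changed sign when a library was left out. Groups did not overlap for 0 of the 10 members in either, beside 0.536% of all genes for genotype and 0.243% for treatment.

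The wider IGF pathway was followed in 43 other genes, namely insulin and its receptors, further binding proteins, the proteases that cleave binding proteins with their inhibitors, mRNA-binding proteins, adaptors with the PI3K and AKT kinases, and the imprinted neighbours and regulators of *Igf2* and *Igf2r*. Of these, 40 had enough counts, and 0 passed the threshold in any of the 8 comparisons in edgeR, where 3.17% to 9.17% of all genes had an unadjusted *P*-value under 0.05. Of the 40, such a value was seen for 5 between KO-Nut3 and KO-Veh (beside 7.60% of all genes), 2 between KO-Veh and WT-Veh, 1 between WT-Nut3 and WT-Veh, 5 between KO-Nut3 and WT-Veh, 4 between KO-Nut3 and WT-Nut3, 2 in the interaction, 5 for all KO and 3 for all Nut3 libraries. Their median log2 fold change was 0.020 between KO-Nut3 and KO-Veh beside 0.0034 over all genes, and 0.028 between all Nut3 and all Veh libraries beside -0.00015. The 22 adaptors and kinases had a median log2 fold change of 0.0017 in the latter comparison, with 11 higher and 11 lower. Between KO-Nut3 and KO-Veh, 3 of 3 tested insulin and receptor genes, 2 of 2 further binding proteins, 2 of 5 proteases and inhibitors, 1 of 2 mRNA-binding proteins, 10 of 22 adaptors and kinases and 3 of 6 imprinted neighbours and regulators had a positive log2 fold change. Among the insulin and receptor genes, *Ins2* passed the filter only through libraries where it was high, with 0 reads in every KO-Veh library. Its sign in this comparison was therefore fixed beforehand. *Ins2* also had 0 reads in every WT-Veh library. Its sign was thus fixed too between KO-Nut3 and WT-Veh, between WT-Nut3 and WT-Veh and between all Nut3 and all Veh libraries. The counts over the 40 genes include *Ins2*. The receptor of insulin, *Insr*, had 76.7 to 85.2 CPM.

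Groups that did not overlap with at least a 1.5-fold difference were seen for 3 of these genes between KO-Nut3 and KO-Veh (beside 5.50% of all genes), 2 between KO-Nut3 and WT-Veh (5.50%), 1 between KO-Nut3 and WT-Nut3 (3.93%), 1 between WT-Nut3 and WT-Veh (3.09%) and 0 between KO-Veh and WT-Veh (3.68%), and 0 of them passed the threshold. *Igfbpl1*, an IGF-binding-like protein, had 3.88, 3.21 and 4.50 CPM in KO-Nut3 RH6, RH8 and RH13, against 2.45, 0.683 and 1.39 CPM in WT-Veh RH2, RH5 and RH15 and 1.01, 1.14 and 2.75 CPM in WT-Nut3 RH1, RH9 and RH14. KO-Nut3 was above both WT groups (log2 fold changes 1.37, SE 0.385, adjusted *P*-value 0.304, and 1.24, SE 0.368, adjusted *P*-value 0.928 in edgeR, and 2.12 and 2.31 with the marker scores as terms). The first of these passed without a filter on low counts (adjusted *P*-value 0.0274), while KO-Veh RH16 had 5.13 CPM, the highest of all. *Pappa*, a protease that cleaves IGFBP4, had 2.72, 1.72 and 2.20 CPM in KO-Nut3 and 1.5, 1.18 and 1.48 CPM in KO-Veh (log2 fold change 0.67, SE 0.270). *Irs4*, an adaptor of the receptors, was lower in WT-Nut3 than in WT-Veh (log2 fold change -0.89, SE 0.475, adjusted *P*-value 0.998, and -0.59 without WT-Veh RH5), at 5 to 17 reads per library of these groups. *Igfals*, whose protein joins complexes of ligand and carrier in blood, had 6, 4 and 5 reads in KO-Nut3 and 1, 2 and 3 reads in KO-Veh, too few for a fold change. The antisense gene *Igf2os* had a higher level in each KO-Nut3 library than in those of KO-Veh (log2 fold change 0.99, SE 0.563, and 0.64 without KO-Veh RH7) and WT-Veh (1.13, SE 0.505, adjusted *P*-value 0.547 in edgeR), at 2 to 10 reads per library of these groups. With the marker scores as terms these log2 fold changes were -0.85 and -0.77, in the opposite direction. With strand columns summed the one against KO-Veh was 1.76. Reads of *Igf2os* cannot be told from reads of *Igf2* where both genes lie, because the libraries hold equal shares of both strands.

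*Ins2*, an insulin gene, had 15 reads in KO-Nut3 RH6, 14 in KO-Nut3 RH13 and 7 in WT-Nut3 RH9, the 3 libraries with the highest *Ttr*, and 0 reads in the other 9, where a count of 0 allows up to 3 reads. *H19*, the noncoding RNA made from the maternal copy next to *Igf2*, had 58 reads (2.99 CPM) in WT-Veh RH15 and 0 to 4 reads in the other 11. In that library *Igf2* had 15 reads, so a high *H19* did not come with a high *Igf2*.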

How the data were processed

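Groups of the 12 libraries came from the sample labels. The authors mapped reads to mm10 with STAR, per the labels, and deposited raw counts of reads per gene. The column for both strands was used, since each strand held about 50% of reads. The labels give single reads and the methods paired-end runs, which the counts do not settle. Of 55421 genes, 55240 matched GENCODE M21, from which exon lengths were taken. Bases shared with another gene were left out of levels per kb.

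TMM normalisation and the two-sided quasi-likelihood test were run in edgeR 4.0.16 under R 4.3.3. A gene needed more than 20 counts over the libraries, which left 22592, and Benjamini-Hochberg adjustment was over all of them. Pairs of groups were fitted alone, with 6 libraries each, and pooled comparisons and the interaction on all 12. SEs are the size of the log2 fold change over the square root of *F*. *P*-values set the difference between groups against the spread between these mice, which the fit estimates in part from all genes together. The members and lists were chosen with earlier results of these data known. Named were all members, pathway genes past the threshold or with non-overlapping groups and at least a 1.5-fold difference, *Fmr1*, *Ttr*, *Aldh1a2* and the 5 genes most like *Igf2* and *Igfbp2* among those with a mean of at least 1 CPM. *Insr*, *Ins2* and *H19* were named after their values were seen.

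Results were recomputed with DESeq2 1.42.0, with limma-voom (limma 3.58.1), with size factors from DESeq2, with filterByExpr, without a filter on low counts, with 12 libraries fitted jointly, with robust dispersions, with strand columns summed, with animal numbers (up to RH8, from RH9) as a term, with marker scores as terms and without each library in turn. Likeness was also ranked by Spearman's rho. The procedure was tested on simulated data. Promoter windows came from RefSeq (GRCm38.p6).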

Additional observations from a re-analysis of the deposited data

Results flagged for a closer look

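Within the 6 libraries of a genotype or of a treatment, the gap of the highest or lowest library to its neighbour was compared with the range of the group, for the 10 members and 40 sets in all. Of these, 4 had a library set apart from the others by Dixon's criterion. Chance sets a library apart in about 1 in 20 single sets, but the 40 are not separate, since each library is in a genotype set and a treatment set, and 2 of the 4 rest on the same value of *Igfbp4*.

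*Igf2* in WT-Veh RH5, with 3.26 CPM, was set apart from the other 5 Veh libraries, which had 0.299 to 1.03 CPM. *Igfbp2* in WT-Nut3 RH9, with 100.1 CPM, was set apart from the other 5 WT libraries, which had 15.6 to 31.4 CPM. *Igfbp4* in KO-Nut3 RH6, with 64.6 CPM, was below the other 5 libraries both among the KO libraries (88.5 to 92.3 CPM) and among the Nut3 libraries (82.4 to 92.3 CPM). KO-Nut3 RH6 also had the lowest sum of hippocampal neuron markers, 757 CPM against 956 to 1183 CPM elsewhere, and the part of this in the level of *Igfbp4* was not tested.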

How the results depend on the processing

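Of 922 values of 51 fold changes under the alternatives, 853 kept direction and side of the threshold, 10 kept direction but lost a call, 15 gained one and 44 reversed, 2 of which (*Igf2* and *Igfbp2* between KO-Nut3 and KO-Veh with marker scores as terms) also lost their call. Between KO-Nut3 and KO-Veh, 2 members passed, against 1 with limma-voom and 1 with robust dispersion (*Igfbp2* lost in both), 0 with all 12 libraries in one fit, 0 with marker scores as terms, and 0 to 2 when a library was left out (0 without KO-Veh RH10 or RH16, 1 without RH7). Without a filter on low counts, 3 members passed in that comparison (*Igfbp7* besides), 1 between KO-Veh and WT-Veh, 1 between WT-Nut3 and WT-Veh, 3 between KO-Nut3 and WT-Veh, 2 in the interaction and 3 between all Nut3 and all Veh libraries, and *Igfbpl1* passed between KO-Nut3 and WT-Veh. That fit called 544 genes between KO-Nut3 and KO-Veh, against 45, and its prior degrees of freedom were 38.8 against 5.76. They were infinite between KO-Veh and WT-Veh (9.49 in the main fit), between WT-Nut3 and WT-Veh (6.92) and in the interaction (6.22). In these 3 fits the spread of a gene itself did not enter the test. Calls over all genes also rose elsewhere without this filter (main fit in brackets). KO-Veh against WT-Veh had 272 (4), WT-Nut3 against WT-Veh 249 (0) and KO-Nut3 against WT-Veh 416 (1). The interaction had 291 (0) and all Nut3 against all Veh 539 (0). With 0 members called, KO-Nut3 against WT-Nut3 had 38 (1) and all KO against all WT 239 (1). Between KO-Nut3 and WT-Veh, 2 members passed with DESeq2, and 0 to 1 with a library left out (1, *Igfbp2*, without KO-Nut3 RH8). Over all genes, DESeq2 called 222 there and the fit without KO-Nut3 RH8 called 197, against 1 in the main fit. Between KO-Nut3 and KO-Veh, calls over all genes were 245 with DESeq2, 19 with limma-voom and 45 with robust dispersion. They were 0 with all 12 libraries in one fit and 0 with marker scores as terms. Without KO-Veh RH7, RH10 and RH16 they were 6, 6 and 7. The call of *Fmr1* between KO-Nut3 and WT-Nut3 was lost without WT-Nut3 RH14 (adjusted *P*-value 0.0991 in edgeR). Its log2 fold change was then -1.24 (SE 0.105), against -1.27 with all libraries. The causes were not tested.

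With marker scores as terms, log2 fold changes reversed as follows. *Igf2* had -0.44 between KO-Nut3 and KO-Veh, 0.098 between KO-Veh and WT-Veh, -0.017 between WT-Nut3 and WT-Veh, -0.34 between KO-Nut3 and WT-Veh, -0.32 between KO-Nut3 and WT-Nut3, -0.43 in the interaction, -0.12 for all KO and -0.17 for all Nut3 libraries. *Igfbp2* had -0.19 between KO-Nut3 and KO-Veh, -0.38 between WT-Nut3 and WT-Veh, -0.36 between KO-Nut3 and WT-Veh, -0.092 for all KO and -0.31 for all Nut3 libraries. *Igf2os* had -0.85 between KO-Nut3 and KO-Veh and -0.77 between KO-Nut3 and WT-Veh. *Igfbp7* had -0.022 and *Igfbp6* -0.24 in the interaction, *Igfbp3* -0.040 for all KO, and *Igf2r* -0.064 and *Igfbp4* 0.0015 for all Nut3 libraries.

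Leaving out a library in turn gave reversals within these ranges. Between KO-Veh and WT-Veh, *Igf2* ran from -1.39 to 0.48, *Igfbp2* from -0.34 to 0.083 and *Igfbp7* from -0.18 to 0.15. Between WT-Nut3 and WT-Veh, *Igf2* ran from -1.14 to 1.65 and *Igfbp2* from -0.43 to 1.34. For all KO against all WT, *Igf1r* ran from -0.0057 to 0.044, *Igfbp3* from -0.050 to 0.13 and *Igfbp4* from -0.0015 to 0.10. For all Nut3 against all Veh, *Igf1* ran from -0.098 to 0.086, *Igfbp3* from -0.18 to 0.015 and *Igfbp4* from -0.086 to 0.020. No paired analysis was made, since each animal number occurs once and the labels used here do not give litters. With 5 to 102 reads per library, *Igf2* was the member limited most by depth.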
